A study of Rattus norvegicus with 6 samples.

Results

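The region described here is the start of chromosome 15 of rn6, in which accessible chromatin was lower in Med14 S983A INS-1 cells than in WT INS-1 cells. It holds the 614 merged ATAC-seq peaks, of 220490 in all, that begin from 56885 to 5565084 on that chromosome, a span of 5.51 Mb. The region was chosen on the readout itself. Along the chromosome, peaks called in all 6 libraries were taken in runs of 200, and this first run had a median at least 1.5-fold lower in Med14 S983A than the median of all such peaks, in CON, Ex-4 and FSK alike. The lower signal of the region as a whole is therefore a description of how it was chosen, and no test of it is given.

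ATAC-seq uses the Tn5 transposase to cut and tag DNA wherever chromatin lets it in, so that read density marks promoters, enhancers and other accessible sites. INS-1 is a rat insulinoma line used as a model of pancreatic beta cells. One group was WT INS-1 cells, and the Med14 S983A group was a knock-in made by CRISPR in which a serine of Med14 is replaced by alanine. The knock-in cells were single-cell clones of 2 independent lines, and neither the labels nor the methods say which line gave these libraries or whether material was pooled, so the genotype and the clone cannot be told apart. Cells of both genotypes were held in medium without serum and then left untreated (CON), or treated for 1 h with 10 nM Ex-4 or with 10 µM FSK. There was 1 library for each of the 6 conditions, without replicates, and every difference below compares single libraries.

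Mediator is a large complex that carries signals from transcription factors bound at enhancers to RNA polymerase II at promoters, and Med14 is the subunit that forms its backbone. Ex-4 is an agonist of the GLP-1 receptor, which raises cAMP in beta cells, and FSK raises cAMP by activating adenylate cyclase directly. cAMP activates protein kinase A, which phosphorylates CREB and other nuclear proteins. A peak's value adds up over all cells of a culture and over all copies of the site in them, so fewer cells with an open site, less access per cell and fewer copies of the site cannot be told apart in such bulk libraries.

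Values are FPKM, read counts scaled to peak length and to the reads in the library's own peaks. A peak that a library's own peak list lacks is given as 0 in that library, with 1 exception among the 614, and is described as listed at 0. No ratio is given against a 0, and such peaks enter counts of 2-fold differences through the 0.5 FPKM added to every value. The libraries held between 134320000 (Med14 S983A CON) and 251150000 (WT FSK) reads in peaks, a depth recovered from the steps between small values, and the deepest library also had the most called peaks.

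The 614 peaks were dense. There were 111 of them per Mb, against 49.2 per Mb over the rest of chromosome 15, which has 5199 merged peaks. Their median length was 300 bp, close to the 294 bp of the rest of the chromosome and the 284 bp of all merged peaks. In all, 200 of the 614 (32.6%) were called in every library, against 40.3% in the rest of the chromosome and 39.3% of all merged peaks. These 200 had a median length of 604 bp, and the other 414 were shorter, with a median of 200.5 bp. Averaged over the 6 libraries, 394 of the 614 reached 1 FPKM, among them all 200 called in every library, and the other 220 enter only the counts of called peaks and of reads.

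Med14 S983A libraries held a smaller share of their reads in the region. The 614 peaks took 0.277% of the reads in peaks in WT CON (95% exact binomial interval 0.276 to 0.278), 0.283% in WT Ex-4 (0.282 to 0.284) and 0.292% in WT FSK (0.292 to 0.293). They took 0.159% in Med14 S983A CON (0.158 to 0.159), 0.163% in Med14 S983A Ex-4 (0.163 to 0.164) and 0.163% in Med14 S983A FSK (0.162 to 0.163). All 3 WT shares lay above all 3 Med14 S983A shares, as the choice of the region favours. The 3 treatments of a genotype are not replicates, and nothing is read from this order. These intervals, and those below, cover counting error only. The share in Med14 S983A was 0.573 of that in WT in CON, 0.577 under Ex-4 and 0.557 under FSK. Taken as a share of the reads on chromosome 15 alone, the ratios were nearer to 1, at 0.627, 0.638 and 0.647. Over the 200 peaks called in all libraries, the ratios were 0.619, 0.620 and 0.623. This set depends on the peak lists too. It leaves out, among others, 272 peaks called in WT only and 19 called in Med14 S983A only.

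Fewer peaks of the region were called in the mutant. WT CON had 405 of the 614 called (66.0%), WT Ex-4 409 (66.6%) and WT FSK 543 (88.4%). Med14 S983A CON had 246 (40.1%), Med14 S983A Ex-4 279 (45.4%) and Med14 S983A FSK 293 (47.7%). In the rest of chromosome 15 the WT shares were close to these, at 64.8%, 65.5% and 83.3%, and the Med14 S983A shares were higher, at 52.8%, 56.6% and 60.8%. Of the 614, 272 (44.3%) were called in at least 1 WT library and in no Med14 S983A library, against 29.2% in the rest of the chromosome and 22.6% of all merged peaks. The reverse, called in Med14 S983A but in no WT library, held for 19 (3.09%), against 8.52% and 13.99%. Peaks called in WT FSK alone were 110 (17.9%, against 11.5% and 9.66%). That library's depth moves with this count, and its part in the count was not tested.

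**Figure D1:**
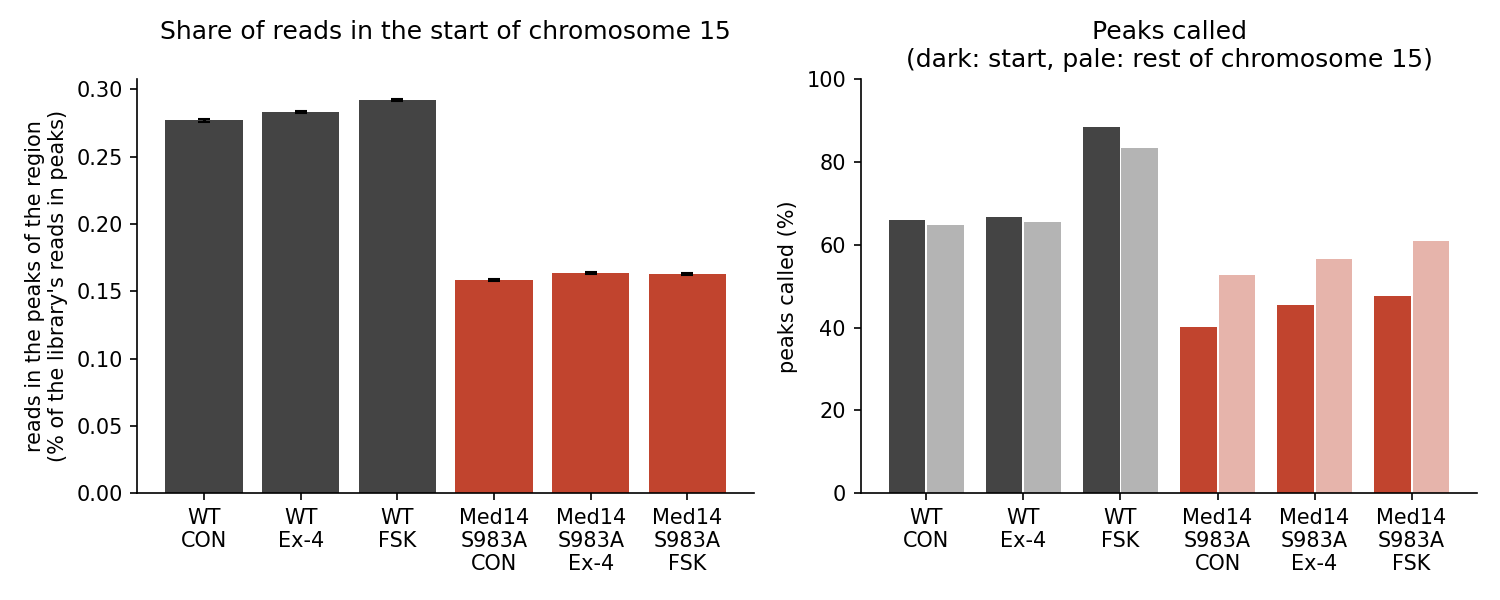
Share of each library's reads in peaks that fell in the 614 peaks (left, %, bars with 95% exact binomial intervals) and share of peaks called (right, %), in the start of chromosome 15 (dark) and in the rest of the chromosome (pale), for 3 WT and 3 Med14 S983A libraries. The WT shares of reads lie between 0.277% and 0.292% and the Med14 S983A shares between 0.159% and 0.163%; called peaks of the region are between 66.0% and 88.4% in WT and between 40.1% and 47.7% in Med14 S983A.

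The 200 peaks called in every library were stronger in WT than their counterparts elsewhere on the chromosome, and weaker in the mutant. Their median was 11.1 FPKM in WT CON, 10.7 in WT Ex-4 and 9.70 in WT FSK, against 7.25, 7.41 and 7.01 over the 2093 such peaks in the rest of chromosome 15. In Med14 S983A the medians were 5.86 in CON, 5.97 under Ex-4 and 5.20 under FSK, against 6.63, 6.71 and 5.83. The region thus lay above the rest of its chromosome in all 3 WT libraries and below it in all 3 Med14 S983A libraries. The choice of the region favours this order, and the 3 treatments of a genotype are not replicates, so nothing is read from it.

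Differences between libraries were taken on the scale of log2(FPKM + 0.5), which understates the change of weak peaks. On it the median of Med14 S983A minus WT over the 200 peaks was -0.67 in CON, -0.66 under Ex-4 and -0.64 under FSK. The rest of chromosome 15 had medians of 0.061, 0.035 and -0.025, and all 86465 such peaks of the genome 0.051, 0.052 and 0.037. The quartiles of the 200 in CON were -1.21 and -0.40, both below 0, as the choice of the region favours. The gap between the region and the rest of its chromosome was -0.73 in CON, -0.69 under Ex-4 and -0.61 under FSK, and -0.69, -0.71 and -0.71 under quantile normalization. Centring each library on peaks called in all 6 moved the median of all peaks by 0.12, 0.11 and 0.17, and by its construction it cannot change this gap.

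Most single peaks followed the median. Of the 200, 167 (83.5%) were lower in Med14 S983A in all 3 treatments, 15 (7.5%) were higher in all 3 and 18 changed direction between treatments. In the rest of the chromosome 37.6% were lower in all 3 treatments, and 36.4% of all such peaks. Across the 200 peaks, the difference in CON had a Pearson correlation of 0.94 with the difference under Ex-4 and of 0.91 with that under FSK, and Ex-4 and FSK gave 0.93. These comparisons share no library, but they share both cell lines, and peaks are not replicates. The same 3 values in the rest of the chromosome were 0.94, 0.90 and 0.92, of about the same size.

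**Figure D2:**
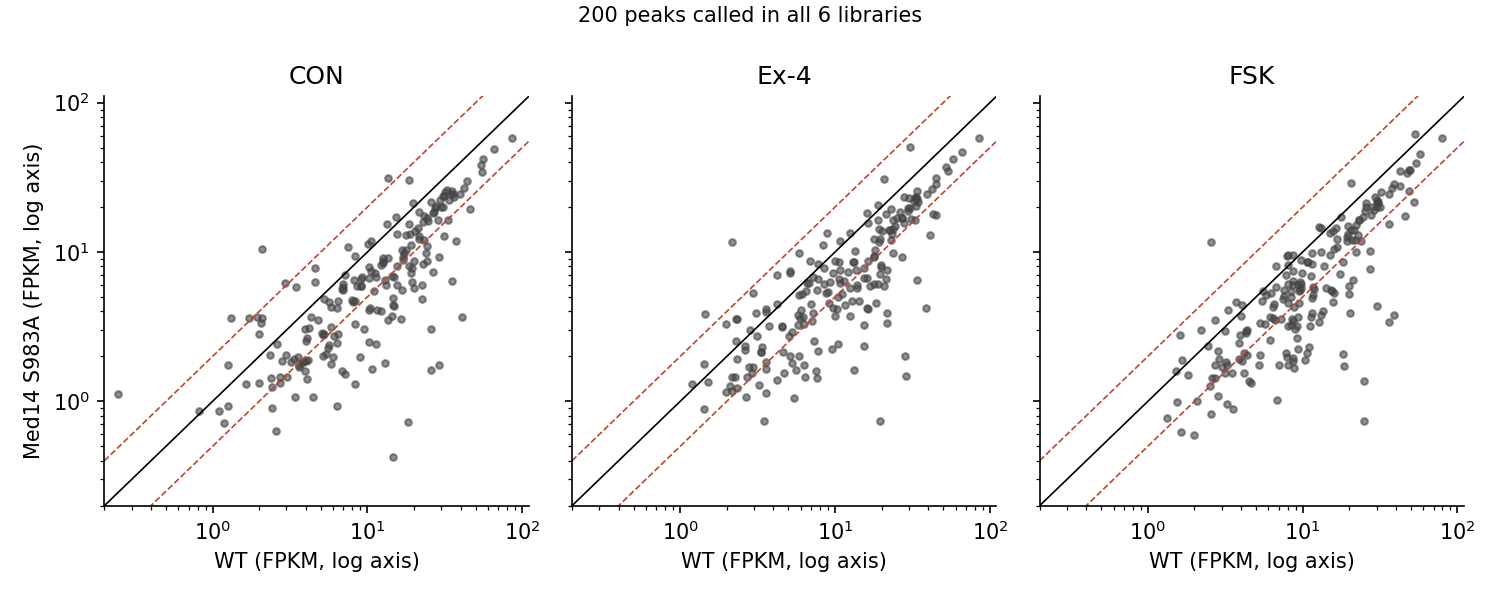
FPKM in WT (x axis, log) against Med14 S983A (y axis, log) for the 200 peaks called in all 6 libraries, in CON, Ex-4 and FSK; the solid line marks equal values and the dashed lines a 2-fold difference. Most points lie below the solid line, 177 of 200 in CON, 172 under Ex-4 and 182 under FSK.

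Peaks that differed at least 2-fold were counted over the 394 that averaged 1 FPKM or more. In CON, 195 were lower in Med14 S983A, beside 21.5% of all tested peaks, and 19 were higher, beside 11.3%. With Ex-4, 189 were lower (19.9% of all tested peaks) and 21 higher (13.3%). With FSK, 206 were lower (24% of all tested peaks) and 7 higher (8.94%). The region was chosen on this contrast, so nothing is read from these shares. Many of the lower peaks were peaks that the mutant's list lacked, with 117 of the 195 in CON, 98 of the 189 with Ex-4 and 116 of the 206 with FSK listed at 0 in Med14 S983A. Among the 200 called in every library, 65 were at least 2-fold lower in CON, beside 10.5% of all such peaks, 59 with Ex-4 (9.6%) and 63 with FSK (11.4%). At least 2-fold lower in all 3 treatments were 49 of the 200, beside 7.7% of all such peaks, and at least 2-fold higher in all 3 was 1, beside 2.88%.

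The strongest peaks of the region were lower by a modest and even amount. These 5 lay between 2981615 and 4658720 and had between 48.5 and 85.9 FPKM in WT libraries and between 34.6 and 58.4 in Med14 S983A libraries. The strongest, from 3410048 to 3410806, had 85.9 FPKM in WT CON, 85.4 in WT Ex-4 and 79.0 in WT FSK, and 58.3, 57.9 and 58.4 in the corresponding Med14 S983A libraries. Its WT values exceeded the mutant's 1.47-fold in CON, 1.48-fold with Ex-4 and 1.35-fold with FSK. The longest of the 5, from 2981615 to 2983495, had 54.2, 52.2 and 48.5 FPKM in WT CON, Ex-4 and FSK and 38.5, 37.0 and 35.6 in Med14 S983A. Over the 5 peaks and 3 treatments, WT exceeded Med14 S983A between 1.26-fold and 1.60-fold. At each peak all 3 WT values lay above all 3 mutant values, an order that the choice of the region favours.

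Long peaks as a class showed a similar even difference, and they were the least spread in the rest of the chromosome too. Of the 200, 30 were at least 1000 bp long, and 28 of these were lower in Med14 S983A in all 3 treatments. Their median difference was -0.53 in CON with quartiles of -0.63 and -0.41, -0.60 with Ex-4 (-0.67 and -0.48) and -0.51 with FSK (-0.61 and -0.45). The 305 peaks of that length in the rest of the chromosome had a median of 0.20 in CON with quartiles of 0.035 and 0.30. The region was chosen on this contrast and peaks are not replicates, so nothing is read from the distance between the 2 sets. Shorter peaks of the region spread more widely, as they did in the rest of the chromosome. The 78 peaks from 400 to under 700 bp had a median of -0.90 in CON with quartiles of -1.49 and -0.38, the 49 from 700 to under 1000 bp -0.59 (-1.21 and -0.34), and the 43 under 400 bp -0.66 (-0.92 and -0.41). In the rest of the chromosome the quartile ranges in CON were 0.67, 0.90, 0.59 and 0.27 wide, from the shortest class to the longest. The gap between the region and the rest of the chromosome was -0.69, -0.84, -0.69 and -0.73 in CON, in the same order. It was -0.69, -0.61, -0.85 and -0.76 with Ex-4 and -0.60, -0.55, -0.78 and -0.68 with FSK. The class with the largest gap in CON thus had the smallest with either stimulus. By level, the 35 peaks that averaged 20 FPKM or more had a median of -0.53 in CON with quartiles of -0.63 and -0.42, against 0.17 in the rest of the chromosome. The 49 peaks from 10 to under 20 FPKM were lower and more spread, at -0.86 (-1.43 and -0.52). In the rest of the chromosome the quartile range in CON was also wider from 10 to under 20 FPKM, at 0.51, than above, at 0.28. The gap in CON was -0.69 from 1 to under 5 FPKM, -0.63 from 5 to under 10, -0.97 from 10 to under 20 and -0.70 above.

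**Figure D3:**
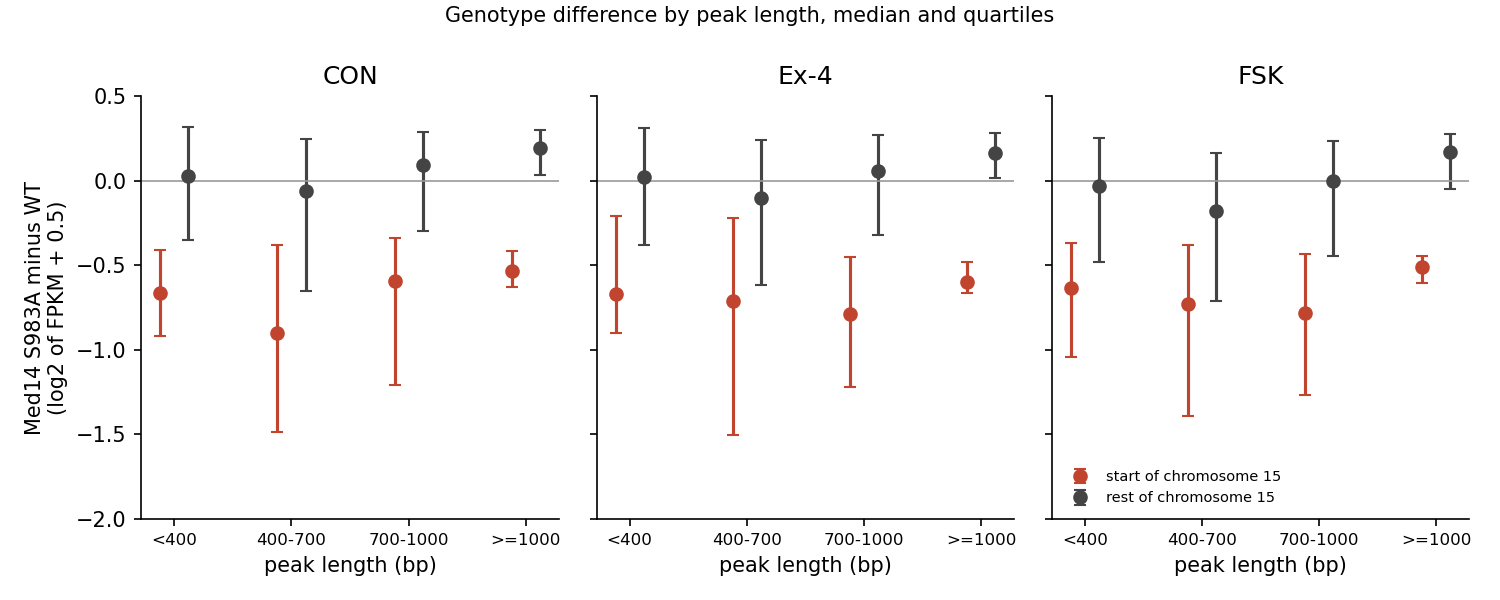
Med14 S983A minus WT on the scale of log2(FPKM + 0.5), as median (point) and quartiles (bars) over peaks called in all 6 libraries, by peak length in bp, for the start of chromosome 15 and for the rest of the chromosome, in CON, Ex-4 and FSK. Peaks at least 1000 bp long have narrow quartiles in CON in both sets, around a median of -0.53 in the region. The median of every length class of the region lies below that of the rest of the chromosome, as the choice of the region favours.

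Some peaks were nearly absent in Med14 S983A although still called there. The lowest of the 200 lay from 4986544 to 4987315 and had 18.4 FPKM in WT CON, 19.4 in WT Ex-4 and 24.8 in WT FSK, against 0.724, 0.740 and 0.740 in Med14 S983A. WT exceeded the mutant 25.4-fold, 26.2-fold and 33.6-fold there, and the mutant values rested on 75, 84 and 93 reads (0.569 to 0.908 FPKM in CON, 95% exact Poisson interval). The peak from 4747922 to 4748908 had 29.1, 28.7 and 24.9 FPKM in WT and 1.75, 1.48 and 1.37 in the mutant. The peak from 4673391 to 4673861 had 25.9, 28.3 and 38.6 FPKM in WT and 1.63, 2.01 and 3.81 in Med14 S983A, highest with FSK in both genotypes. The peak from 3459531 to 3460470 had 40.8, 38.6 and 35.9 FPKM in WT and 3.69, 4.19 and 3.37 in Med14 S983A. These 4 peaks were picked for their low difference, so the distance between the groups follows from that choice. Of the 4, 3 fall in the last 20 peaks of the region, from 4657818 to 5565084. The fifth, from 495291 to 495944, behaved differently, with 14.6 FPKM in WT CON, 13.3 in WT Ex-4 and 8.67 in WT FSK against 0.422, 1.61 and 1.86. WT exceeded Med14 S983A 34.6-fold in CON and 4.66-fold with FSK at this peak, where the FSK value was below the CON value in WT and above it in the mutant.

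Other peaks were on the WT lists only. Of the 614, 84 (13.7%) were called in all 3 WT and no Med14 S983A library, against 9.73% in the rest of the chromosome and 5.52% of all merged peaks. Of these, 67 had a mean of at least 1 FPKM, and in WT CON these ran from 1.34 to 16.7 FPKM with a median of 3.20. The strongest of them lay from 4815886 to 4816994 and had 13.7, 15.5 and 21.3 FPKM in WT CON, Ex-4 and FSK. The next, from 278612 to 279341, had 16.7, 16.0 and 16.3 FPKM, with no more than a small move between treatments. Those from 836570 to 837350, from 2691025 to 2691245 and from 4186914 to 4187256 had 9.42, 10.8 and 11.0 FPKM in WT CON. All 5 are listed at 0 in every Med14 S983A library.

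In the other direction, 4 peaks (0.651%, against 1.87% in the rest of the chromosome and 2.27% of all) were called in all 3 Med14 S983A libraries and in no WT library. One of them was among the stronger peaks of the mutant. It lay from 4334091 to 4334681 and had 30.9 FPKM in Med14 S983A CON, 31.0 with Ex-4 and 33.3 with FSK, on 2447, 2687 and 3197 reads. The others, from 2806637 to 2807011, from 4555206 to 4555620 and from 4818099 to 4818852, had 8.997, 4.73 and 2.73 FPKM in Med14 S983A CON. All 4 are listed at 0 in every WT library.

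Among the 200 called in every library, the 15 that were higher in Med14 S983A in all 3 treatments lay close together in places. Of these, 7 fell between 553006 and 723973 and 4 more between 3044873 and 3127097. The highest difference was at the peak from 3077657 to 3078306, with 10.5, 11.6 and 11.6 FPKM in Med14 S983A CON, Ex-4 and FSK against 2.10, 2.15 and 2.57 in WT. The mutant exceeded WT 5.01-fold in CON, 5.39-fold with Ex-4 and 4.51-fold with FSK, and this was the 1 peak at least 2-fold higher in all 3 treatments. The nearby peak from 3044873 to 3045428 had 30.6, 30.7 and 28.8 FPKM in Med14 S983A against 18.4, 20.8 and 20.7 in WT. The peak from 4598300 to 4598869 was higher in the mutant mainly without FSK, with 3.64, 5.32 and 4.40 FPKM against 1.31, 2.94 and 4.06.

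The difference was not even along the region. In sets of 20 consecutive peaks called in all libraries, the medians in CON were, from the first set to the tenth, -0.64, -0.81, -0.24, -1.18, -0.73, -0.41, -0.66, -0.52, -0.46 and -1.41. The lowest was the last set, from 4657818 to 5565084, where all 20 peaks were lower in CON, and its median was -1.41 with Ex-4 and -1.42 with FSK. The highest was the third set, from 561653 to 818738, where 11 of 20 peaks were lower and the medians were -0.24 in CON, -0.17 under Ex-4 and -0.25 under FSK. In sets of 10 peaks, the 10 from 561653 to 669948 had medians of 0.16 in CON, 0.15 under Ex-4 and -0.21 under FSK, and those from 3023469 to 3219713 had -0.054, -0.065 and -0.090. The lowered stretch was thus broken at these 2 places, and the other 18 sets of 10 lay at -0.35 or below in CON.

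The end of the region did not mark the end of the lower signal. The last peak inside, from 5564539 to 5565084, had 14.3, 13.8 and 11.7 FPKM in WT CON, Ex-4 and FSK and 6.86, 5.97 and 5.18 in Med14 S983A. The next peak called in all libraries, from 5610930 to 5611454, had 34.9, 32.4 and 29.9 FPKM in WT and 10.1, 9.60 and 9.31 in Med14 S983A, a larger difference than that of the last peak inside. The following 4 sets of 20, from 5610930 to 9446771, had medians of -1.08, -0.92, -0.71 and -0.58 in CON, and the 80 peaks together had -0.80 in CON, -0.75 under Ex-4 and -0.83 under FSK. The set after them, which begins at 9490429, had -0.0048 in CON, 0.060 under Ex-4 and -0.14 under FSK, and the 2013 later peaks of the chromosome together 0.078, 0.052 and -0.0048. Single sets further on were lower again. The lowest of the 100 later sets in CON, from 12831852 to 14839339, had medians of -0.51 in CON, -0.50 under Ex-4 and -0.52 under FSK with 17 of 20 peaks lower in CON, in CON about as low as the eighth and ninth sets inside the region, and the set from 10940811 to 11761506 had -0.24, -0.31 and -0.52. Medians at least 1.5-fold lower in all 3 treatments were found in 5 of the 10 sets of the region. Outside it, they were found in the sets that begin at 5610930, 7397169 and 8161685, and in 0 of the 100 later sets. The region was chosen by a like limit, and the later sets begin where the lowered ones end. Nothing is read from these counts. The 5.51 Mb are therefore the part of a longer lowered stretch that the runs of 200 peaks happened to cut. At the other end, 6 merged peaks lie before the first of the region, none of them called in all libraries. The first peak inside, from 56885 to 57228, had 3.37, 3.60 and 4.48 FPKM in WT and 1.91, 1.13 and 1.38 in Med14 S983A, and the nearest outside, from 50261 to 50489, had 1.19, 2.35 and 1.57 in WT and is listed at 0 in the mutant.

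**Figure D4:**
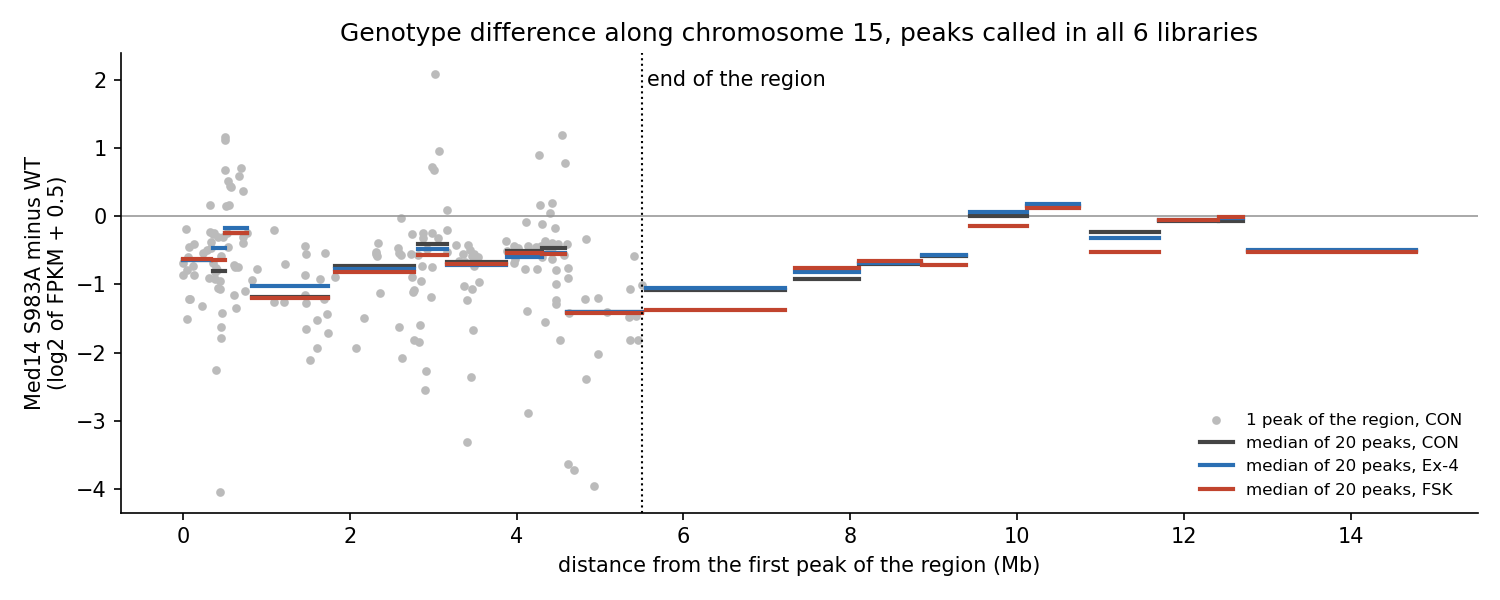
Med14 S983A minus WT on the scale of log2(FPKM + 0.5) against distance from the first peak of the region in Mb, with each of the 200 peaks in CON as a grey point and medians of 20 consecutive peaks as lines in CON, Ex-4 and FSK. The medians lie between -1.41 and -0.24 in CON within the region, stay below 0 over the next 4 sets beyond its end (dotted line), and then reach -0.0048, with a single later set at -0.51 in CON.

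The response to the stimuli uses contrasts within a genotype, which did not choose the region but share libraries with those that did. In WT, FSK opened 79 of the 394 tested peaks at least 2-fold (20.1%, against 20.4% of all tested peaks) and closed 18 (4.57%, against 7.39%). In Med14 S983A, FSK opened 68 (17.3%, against 17.4%) and closed 27 (6.85%, against 8.85%). Of the 394, 85 were called in WT only, against 14786 of all 146906 tested peaks. The reverse held for 6, against 6827. Peaks called in WT only are listed at 0 throughout Med14 S983A, so no stimulus can open or close them there. They passed the filter on WT values alone, and peaks called in Med14 S983A only are likewise listed at 0 throughout WT. The shares of tested peaks in both genotypes, here and in what follows, therefore rest on unlike sets and cannot be compared with the background. Of the opened peaks, 45 in WT and 53 in Med14 S983A are listed at 0 in CON. Under quantile normalization the share of opened among opened and closed peaks moved from 81.4% to 56.6% in WT and from 71.6% to 57.0% in Med14 S983A. Counting only the 200 peaks called in every library, FSK opened 15 in WT (7.5%, against 5.94% of all such peaks) and 13 in Med14 S983A (6.5%, against 4.56%).

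Ex-4 moved fewer peaks. In WT it opened 16 of the 394 (4.06%, against 4.58% of all tested peaks) and closed 7 (1.78%, against 2.87%), and 14 of the 16 are listed at 0 in WT CON. In Med14 S983A it opened 44 (11.2%, against 7.87%) and closed 11 (2.79%, against 2.8%), and 41 of the 44 are listed at 0 in Med14 S983A CON. The larger count in the mutant therefore came almost wholly from peaks that its CON list lacked, and over the 200 called in every library Ex-4 opened 2 in WT (1.0%, against 0.448% of all such peaks) and 3 in Med14 S983A (1.5%, against 0.634%). Med14 S983A CON was the shallowest library and had the fewest called peaks of the region, whose part in this count was not tested.

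Over peaks called in every library, the FSK responses of the 2 genotypes differed by a median near 0. The median over the 200 peaks of the FSK change in Med14 S983A minus that in WT was -0.0062 on the log2 scale, with quartiles of -0.19 and 0.14. Over the 394 tested peaks it was -0.032. For each peak this difference is also the genotype difference with FSK minus that in CON. The region was chosen on both of these, so nothing is read from the median near 0. FSK opened 46 of the 394 in both genotypes (11.7%, against 13.4% of all tested peaks and 11.7% in the rest of the chromosome) and closed 7 in both (1.78%, against 3.49% and 3.61%). The median FSK change of the 200 was -0.11 in WT and -0.086 in Med14 S983A, and the latter became 0.022 when each library was centred on peaks called in all 6. These 2 responses share no library, and no test is possible with 1 library per condition.

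Peaks opened by FSK were more frequent in 1 stretch, which was picked out after these values were seen and carries no test. Between 410401 and 818738, a stretch of 408 kb that holds 67 tested peaks, FSK opened 27 in WT (40.3%, beside 20.4% of all tested peaks) and 20 in Med14 S983A (29.9%, beside 17.4%). In the first set, before it, FSK opened 11 of 42 in WT (26.2%) and 10 in Med14 S983A (23.8%). From 888153 to the end of the region it opened 41 of 283 in WT (14.5%) and 38 in Med14 S983A (13.4%), of which the last set held 5 and 11 of its 55. Of the 40 peaks in the stretch called in every library, 9 were opened in WT, beside 5.94% of all such peaks, 7 in Med14 S983A, beside 4.56%, and 5 in both, beside 3.63%.

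The 5 peaks most raised by FSK over both genotypes, among the 200, all lay in that stretch, between 434799 and 591559. The peak from 553006 to 553624 had 0.246 FPKM in WT CON, 1.45 in WT Ex-4 and 13.2 in WT FSK, and 1.12, 3.86 and 14.5 in Med14 S983A. FSK raised it 53.6-fold in WT, from a CON value of 23 reads (0.156 to 0.369 FPKM, 95% exact Poisson interval), and 12.9-fold in Med14 S983A, and the genotypes differed by 4.55-fold in CON but by 1.10-fold with FSK. The largest FSK level of the 5 was at the peak from 561653 to 562610, with 13.7, 30.4 and 52.9 FPKM in WT CON, Ex-4 and FSK and 31.2, 50.6 and 61.4 in Med14 S983A. This peak was also higher in the mutant, most so before treatment, and Ex-4 raised it in both genotypes. The peak from 591176 to 591559 had 12.7, 21.2 and 42.6 FPKM in WT and 9.12, 17.8 and 34.8 in Med14 S983A, and FSK raised it 3.36-fold and 3.81-fold. The peak from 434799 to 435354 had 2.72, 3.10 and 16.6 FPKM in WT and 1.33, 3.91 and 10.8 in the mutant. The peak from 473811 to 474309 had 1.26, 2.63 and 8.36 FPKM in WT and 0.927, 2.21 and 4.99 in Med14 S983A. At all 5 peaks the Ex-4 value lay between the CON and FSK values in both genotypes, although the counting intervals of CON (2.38 to 3.10 FPKM) and Ex-4 (2.74 to 3.49) overlapped in WT at the peak from 434799.

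**Figure D5:**
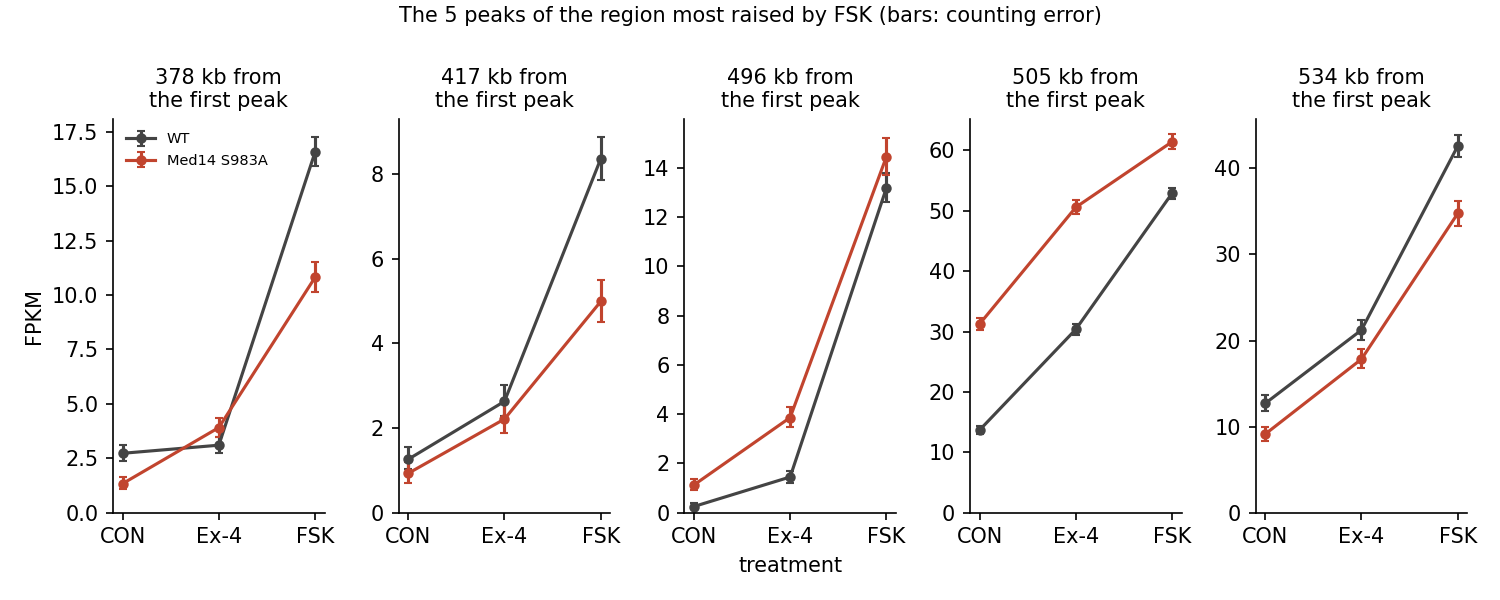
FPKM in CON, Ex-4 and FSK for WT and Med14 S983A at the 5 peaks called in all libraries with the largest mean FSK change, ordered by distance from the first peak of the region, with 95% exact Poisson intervals as bars. Values rise from CON over Ex-4 to FSK in both genotypes, for example from 13.7 to 30.4 to 52.9 FPKM in WT and from 31.2 to 50.6 to 61.4 in Med14 S983A at the fourth peak.

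FSK lowered 3 of the 200 at least 2-fold in WT (1.5%, against 3.65% of all such peaks) and 6 in Med14 S983A (3.0%, against 4.28%). The largest mean decrease was at the peak from 507400 to 507915, which lies inside the same stretch and had 26.6 FPKM in WT CON, 18.9 in WT Ex-4 and 8.05 in WT FSK, and 7.37, 6.06 and 1.76 in the mutant. The peak from 1520666 to 1521045 had 17.1, 15.4 and 8.36 FPKM in WT and 9.23, 7.77 and 3.24 in the mutant. The peak from 1578176 to 1578839 had 22.5, 21.6 and 10.4 FPKM in WT and 4.82, 3.93 and 1.89 in Med14 S983A. At these 3 peaks the order CON, Ex-4, FSK was the same in both genotypes, from highest to lowest, and each mutant value lay below the WT value of the same treatment.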

How the data were processed

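Trim Galore, BWA (rn6), SAMtools and MACS2 were used by the authors to trim, align and filter ATAC-seq reads and to call peaks in each library. The deposited values are FPKM that HOMER gave for the merged peaks. No source used here says whether fragments behind them were shifted for the Tn5 cut. Peaks had to reach a mean of 1 FPKM over the 6 libraries, the pseudocount was 0.5, and differences of at least 2-fold were counted. The depth of each library was read from the steps between small FPKM values, of which 100% of those checked lay within 0.15 of a whole number of reads. The depth, between 134320000 and 251150000 reads in peaks, makes counting error small for most peaks, while the spread between replicates is unknown.

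Peaks named in the text were, among those called in all libraries, the 5 lowest and 5 highest in mean genotype difference and the 5 highest and 3 lowest in mean FSK change. To these were added the 5 strongest of the region, up to 5 of the strongest called in all libraries of 1 genotype and none of the other, and the peaks at its ends. The region, these lists and the sets of 20 peaks were chosen with earlier results of these data known. Alternatives were other pseudocounts, filters, fold limits, scalings, denominators and sets of peaks. The calculations were tested on simulated data. Annotation and sequence of rn6 were not used here, so genes, promoters, motifs and beta cell markers were not analysed here. Python 3.11.15 was used with matplotlib 3.10.9, scipy 1.17.1, pandas 2.3.3 and numpy 2.4.6.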

Additional observations from a re-analysis of the deposited data

Results flagged for a closer look

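The peak on chromosome 15 of rn6 from 580915 to 581063 was flagged because FSK moved it up in WT and down in the mutant. On the scale of log2(FPKM + 0.5) its FSK change was 3.05 in WT and -3.06 in Med14 S983A. In WT the peak is listed at 0 in CON and had 3.06 FPKM under Ex-4 and 3.63 under FSK, while the Med14 S983A values were 3.67 FPKM in CON, 2.80 under Ex-4 and 0 under FSK. The difference between the genotypes was not tested, since each condition has 1 library, and each direction rests on 1 library whose peak list lacks it, so that the sizes 3.05 and -3.06 are set in part by the pseudocount of 0.5 FPKM and are no measured folds. It was the 1 peak, of the 394 of the region that averaged 1 FPKM or more, that FSK opened at least 2-fold in WT cells and closed at least 2-fold in the mutant, and 0 did the reverse. That is 0.254% of the 394, against 0.192% for the same pattern in the rest of chromosome 15.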

How the results depend on the processing

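No condition has more than 1 library, so no replicate could be left out. WT and Med14 S983A libraries could be paired by treatment, but no such test was run. The region was chosen on that contrast, and treatments are not replicates. The restriction to long peaks and to peaks from the fourth set on was chosen after seeing the data. Values of 3 treatments are given in the order CON, Ex-4, FSK. The choice of the region favours a median genotype difference of the 200 peaks below 0, so nothing is read from its sign. In each treatment 12 alternatives were run, some of them over other sets of peaks. All 200 peaks pass the filter, so dropping it could not move the median. The median ran from -0.96 to -0.50 in CON, -0.93 to -0.52 with Ex-4 and -1.14 to -0.39 with FSK. It was -0.55, -0.55 and -0.46 with libraries centred on peaks called in all 6, -0.55, -0.52 and -0.39 when centred on the rest of chromosome 15, -0.50, -0.58 and -0.52 under quantile normalization, and -0.96, -0.93 and -1.14 over all 394 tested peaks. Over peaks of at least 1000 bp it was -0.53 in CON and -0.51 with FSK. The ratio of read shares was 0.627, 0.638 and 0.647 within chromosome 15 and 0.619, 0.620 and 0.623 over peaks called in all 6. The highest set median in CON, -0.24, reversed to 0.16 in sets of 10 peaks and was -0.57 in sets of 40, where the lowest was -0.95 in place of -1.41. The median FSK change in Med14 S983A, -0.086, reversed to 0.022 with libraries centred on peaks called in all 6.

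Counts moved where an alternative changes by its construction which peaks are counted. Lower in Med14 S983A were 93, 85 and 92 at a mean of at least 3 FPKM, 127, 117 and 134 at 4-fold, and 65, 59 and 63 over peaks called in all 6. Without a filter, 358 were lower and 15 higher with FSK. Higher peaks were 11 with Ex-4 and 4 with FSK at 3 FPKM, 4 with FSK at 4-fold, 4, 2 and 1 over peaks called in all 6, and 14 with FSK under quantile normalization. For the stimuli, without a filter WT Ex-4 opened 44 and closed 39 and WT FSK opened 210 and closed 51. At 3 FPKM, opened and closed were 6 and 0 for WT Ex-4, 32 and 5 for WT FSK, 20 and 1 for Med14 S983A Ex-4, and 31 and 14 for Med14 S983A FSK. Over peaks called in all 6 they were 2 and 0, 15 and 3, 3 and 0, and 13 and 6 in the same order. At 1.5-fold, WT Ex-4 opened 28, WT FSK closed 52 and Med14 S983A FSK closed 44. At 4-fold, WT Ex-4 opened 9, WT FSK opened 50 and closed 4, Med14 S983A Ex-4 opened 19 and closed 7, and Med14 S983A FSK opened 40 and closed 10. Under quantile normalization WT FSK closed 53, for which the cause was not tested. Of the values that answer a comparison, 102 kept their direction and size, 71 moved and 1 reversed. Peaks listed at 0 have no ratio, and the part of depth in their number was not tested.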
